A study of Mus musculus with 6 samples.

Results

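The 10 genes described here encode the major proteins of mouse milk and proteins that accompany them: the caseins Csn1s1, Csn1s2a, Csn1s2b, Csn2 and Csn3, the whey proteins Wap and Lalba, the milk fat globule protein Btn1a1, the whey acidic protein (WAP) domain gene Wfdc18, and the mucin-like gene Glycam1. All non-control array probes whose transcript identifier belonged to one of these genes were taken. That gave 12 probes, 1 for each gene except Csn1s2b and Wap, which have 2, among 27235 probes that could be matched to 20660 genes. The measurements come from 6 one-color microarrays of RNA from sorted mammary epithelial cells of female C57Bl6J mice, 3 of each population and each labelled as a biological replicate. The fetal population was the EpCAM++ and CD49f+ gate of E18.5 glands that had a short enzyme digestion, with cells positive for CD31, CD45 or Ter119 left out. The basal population was the EpCAM+ and CD49f+ gate of glands from mice 8 to 12 weeks old, digested overnight, with cells positive for CD31, CD45, Ter119 or BP-1 left out. CD31 marks endothelial cells, CD45 and Ter119 blood cells and BP-1 stromal cells, and these were depleted by the sort, BP-1 only from the adult cells. The study describes its adult glands as those of virgin mice. Age, EpCAM gate and digestion differ together and cannot be told apart. Each array measures a sorted bulk population, in which fewer cells of a type and less RNA per cell cannot be told apart either.

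Caseins are secreted by luminal alveolar cells, which bind calcium phosphate to them in micelles, and κ-casein (Csn3) keeps the micelles soluble. In the pregnant and lactating gland, prolactin acts through its receptor, the kinase Jak2 and the transcription factor Stat5 to switch on milk genes, together with glucocorticoid and with the luminal factor Elf5. Lalba joins the enzyme B4galt1 to make lactose, and Btn1a1 anchors the membrane that wraps milk fat droplets. Basal cells are contractile myoepithelial cells and their precursors, and do not secrete milk.

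Stat5 binds the palindrome TTCNNNGAA, and the promoter stretches of 4 milk genes show where it occurs. Of the 10 genes, 7 have an entry in the RefSeq promoter set used here (build GRCm38.p6), each from 250 bases before to 50 after the transcript start, and Csn1s2b, Csn3 and Btn1a1 have none there. The palindrome, which reads the same way on both strands, was found in 4 of the 7 (Csn1s1, Csn2, Csn1s2a and Glycam1), compared with 8.3% of 32851 promoters of the same length. It began 100 bases before the start in Csn1s1, 93 before it in Csn2 and 145 before it in Glycam1, and in Csn1s2a it lay after the start, from base 21, as TTCTTAGAA. AGAACA, a glucocorticoid receptor binding motif, was found on either strand in 1 of the 7 (Csn1s2a) and 19.0% of all promoters, and TATAAA in 1 of the 7 (Wfdc18) and 13.6%. A match is a description of these letters and not evidence of binding. The 250 bases before the start are printed below for Csn1s1 and Csn2, which were higher in fetal cells, for Glycam1, which was higher in basal cells and also holds the palindrome, and for Wfdc18, which was higher in fetal cells and does not hold it. Each is written 5′ to 3′ on the strand of its gene with the palindrome in capitals. Csn1s1 lies on the plus strand (chr5:87665958-87666207), Csn2 on the minus strand (chr5:87699426-87699675), Glycam1 on the minus strand (chr15:103565082-103565331) and Wfdc18 on the plus strand (chr11:83708754-83709003).
Csn1s1: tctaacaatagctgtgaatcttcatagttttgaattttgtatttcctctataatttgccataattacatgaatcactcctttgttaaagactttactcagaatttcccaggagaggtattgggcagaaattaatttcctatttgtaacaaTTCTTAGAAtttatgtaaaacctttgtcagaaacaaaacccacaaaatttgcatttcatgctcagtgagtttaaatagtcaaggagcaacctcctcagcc
Csn2: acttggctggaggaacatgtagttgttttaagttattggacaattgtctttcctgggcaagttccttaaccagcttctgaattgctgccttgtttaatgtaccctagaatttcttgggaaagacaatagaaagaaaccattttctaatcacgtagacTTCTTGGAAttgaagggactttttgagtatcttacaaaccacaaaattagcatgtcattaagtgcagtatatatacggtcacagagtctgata
Glycam1: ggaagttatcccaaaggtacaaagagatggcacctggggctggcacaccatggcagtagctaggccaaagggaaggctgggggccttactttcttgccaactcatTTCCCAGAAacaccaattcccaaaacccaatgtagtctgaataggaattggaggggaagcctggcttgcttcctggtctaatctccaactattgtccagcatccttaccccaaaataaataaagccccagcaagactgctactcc
Wfdc18: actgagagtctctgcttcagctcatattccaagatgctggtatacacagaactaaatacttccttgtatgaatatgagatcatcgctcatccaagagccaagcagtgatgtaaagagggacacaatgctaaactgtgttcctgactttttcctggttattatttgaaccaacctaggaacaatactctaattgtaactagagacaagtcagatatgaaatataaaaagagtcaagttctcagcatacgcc

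Of the 9 genes that could be tested, 5 were higher in the fetal cells (Csn1s1, Csn2, Csn1s2a, Csn3 and Wfdc18), 1 was higher in the basal cells (Glycam1), and 3 did not pass the test (Csn1s2b, Lalba and Btn1a1). Both Wap probes were too dim to be tested. A probe was called where limma's adjusted p, by Holm's method over all 20448 probes tested, was at most 0.05 and the difference at least 1 on the log2 scale, that is 2-fold. Among all probes tested, 11.1% were called, 5.92% with fetal higher and 5.18% with basal higher. The median fetal minus basal difference was -0.03 (log2) over all probes tested. It was 4.79 over the 9 milk genes, or 2.89 with the genes that were dim in 1 population placed at their bound. Among the same 9 genes, the 3 fetal and 3 basal values did not overlap in 8, fetal being higher in 6 and basal in 2. Over all probes tested, 69.0% did not overlap, 34.1% with fetal and 35.0% with basal higher. By the less strict Benjamini-Hochberg adjustment, which called 30.0% of all probes, these 6 milk genes and no others were called. A single 3 against 3 comparison by exact permutation cannot go below p = 0.1, so p-values here come from the limma fit across all probes. Values are log2 normalized signals, and a signal of 1 probe cannot be set against that of another.

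**Figure D1:**
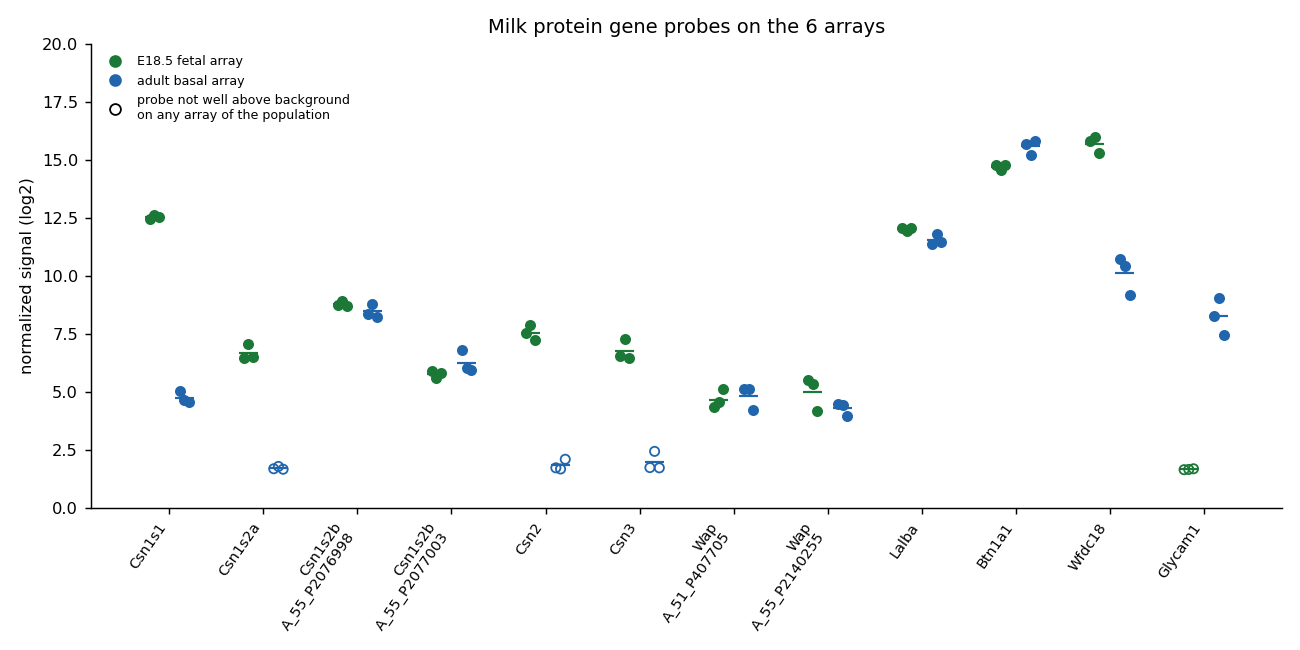
Normalized signal (log2) of the 12 milk gene probes on each of the 6 arrays, with a line at each population mean (n = 3) and open circles where the probe was not clearly detected (well above background) on any of that population's arrays. Csn1s1, Csn2, Csn1s2a, Csn3 and Wfdc18 lie higher on the fetal arrays and Glycam1 on the basal arrays, while the Csn1s2b probe A_55_P2076998 and both Wap probes overlap.

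The calcium-sensitive α-casein Csn1s1 was higher in fetal cells, and was the called casein that was measured above background in both populations. Its probe A_51_P491378 read 12.46, 12.61 and 12.54 on fetal arrays 1 to 3 and 5.02, 4.65 and 4.54 on basal arrays 1 to 3. All fetal values lay at least 7.43 above all basal values, and the probe was well above background throughout. The means were 12.54 ± 0.08 and 4.74 ± 0.25 (SD, n = 3 each), a difference of 7.80 (SE 0.14), or 222-fold, with a limma adjusted p of 2.5e-06. The 2 slides that carried the arrays each held both populations, and the difference was 7.67 on the first and 7.93 on the second. The basal signal was low, as the lowest signals well above background on basal arrays 1 to 3 were 3.21, 3.99 and 4.13. The value of 222-fold is therefore not a firm ratio. With normexp background correction the log2 difference was 6.0, with the call kept.

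β-casein (Csn2), a major micelle protein, was also higher in fetal cells. Probe A_51_P446395 read 7.55, 7.89 and 7.23 in fetal cells and 1.72, 1.67 and 2.09 in basal cells. It was well above background on every fetal array and on no basal array, so the basal side gives only a bound. Fetal signal was at least 13.7-fold higher (means 7.56 ± 0.33 and 1.82 ± 0.23, SD, n = 3 each; limma adjusted p = 0.0002). Here and below, such a bound sets the mean of the brighter population against the lowest signal that was well above background on each array of the other. The populations did not overlap on either slide. With 16 added to the signal before log2, which raises dim signals, the fitted difference was 3.39 and the call was kept. With normexp background correction the probe did not pass the low-signal filter and was not tested.

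Csn1s2a, another calcium-sensitive casein, followed the same pattern. Probe A_51_P422143 read 6.47, 7.05 and 6.48 in fetal cells and 1.68, 1.78 and 1.66 in basal cells. Fetal array 2 was the brightest, and no basal array was well above background. Fetal signal was at least 7.4-fold higher (means 6.67 ± 0.34 and 1.71 ± 0.07, SD, n = 3 each; limma adjusted p = 0.00023).

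κ-casein (Csn3) was the casein with the widest spread within the fetal population. Probe A_55_P2034496 read 6.53, 7.26 and 6.47 in fetal cells and 1.73, 2.43 and 1.72 in basal cells, and array 2 was the brightest of both populations. No basal array was well above background, and fetal signal was at least 7.87-fold higher (means 6.75 ± 0.44 and 1.96 ± 0.41, SD, n = 3 each; limma adjusted p = 0.0071). The call was lost without fetal array 1 (limma adjusted p = 0.093), without fetal array 3 (0.051), without basal array 1 (0.097) and without basal array 3 (0.068).

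Csn1s2b, the remaining calcium-sensitive casein, did not pass the test, and its 2 probes pointed in opposite directions. Probe A_55_P2076998 read 8.73, 8.93 and 8.70 in fetal cells and 8.37, 8.79 and 8.24 in basal cells, so the populations overlapped. The difference was 0.32 (SE 0.16; limma adjusted p = 1.0). Probe A_55_P2077003 read 5.91, 5.59 and 5.79 in fetal cells and 6.80, 6.02 and 5.96 in basal cells. The populations of this probe were separated by 0.04, basal being higher, with a fitted difference of -0.50 (SE 0.23; limma adjusted p = 1.0). Each probe was well above background throughout. Of the 5 caseins, 4 were thus called fetal.

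**Figure D2:**
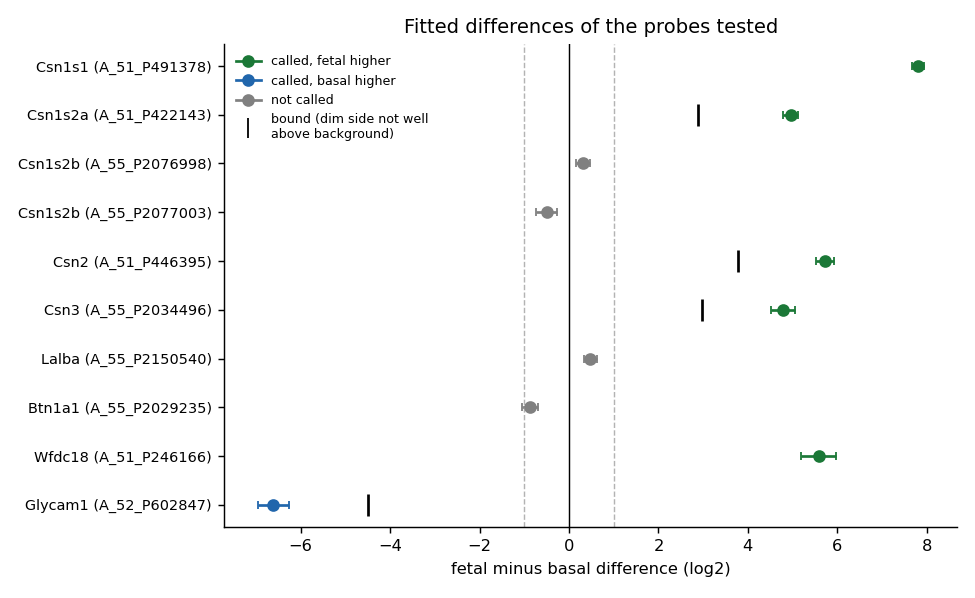
Fitted fetal minus basal difference (log2) with its standard error for the 10 probes tested (n = 3 arrays per population). Dashed lines mark a 2-fold difference, and black ticks mark the bound where the dimmer population was not well above background; Csn1s1 lies at 7.80, and the bound of Glycam1 lies 4.49 toward basal.

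The casein genes lie in a cluster on chromosome 5, with genes of other proteins between and beside them. In the order of the RefSeq gene table, 11 genes lie from Csn1s1 to Csn3, of which 8 had a probe. Besides the caseins, 13 genes within or beside the cluster were measured, counting 5 on each side, and 6 could be tested. Of these, 2 were called fetal, against 5.92% of all probes tested, and 0 were called basal, against 5.18%. Prr27, which lies between Csn1s2b and Csn3, read 7.70, 7.84 and 7.64 in fetal cells and 2.60, 3.14 and 3.48 in basal cells. No basal array had it well above background, and fetal signal was at least 15.4-fold higher (limma adjusted p = 0.0017). Smr3a, a submaxillary gland protein gene beyond Csn3, read 9.91, 9.95 and 9.80 in fetal cells and 1.68, 1.61 and 1.66 in basal cells. Fetal signal was at least 69.1-fold higher (limma adjusted p = 9.4e-08). Its neighbour Smr2 did not pass the test, with a difference of 0.63 (SE 0.12; limma adjusted p = 1.0), nor did Gm7337 inside the cluster, with 0.05 (SE 0.13; limma adjusted p = 1.0), nor Ugt2a1 and Sult1e1 before Csn1s1, with -0.10 (SE 0.19) and 0.42 (SE 0.13). Cabs1 and Gm7714, beyond Csn3 and too dim to be tested, were well above background on 2 and 3 fetal arrays and on no basal array. Their fetal signals were at least 1.39-fold and 1.37-fold higher. The fetal excess was seen at several but not all measured positions of the region.

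**Figure D3:**
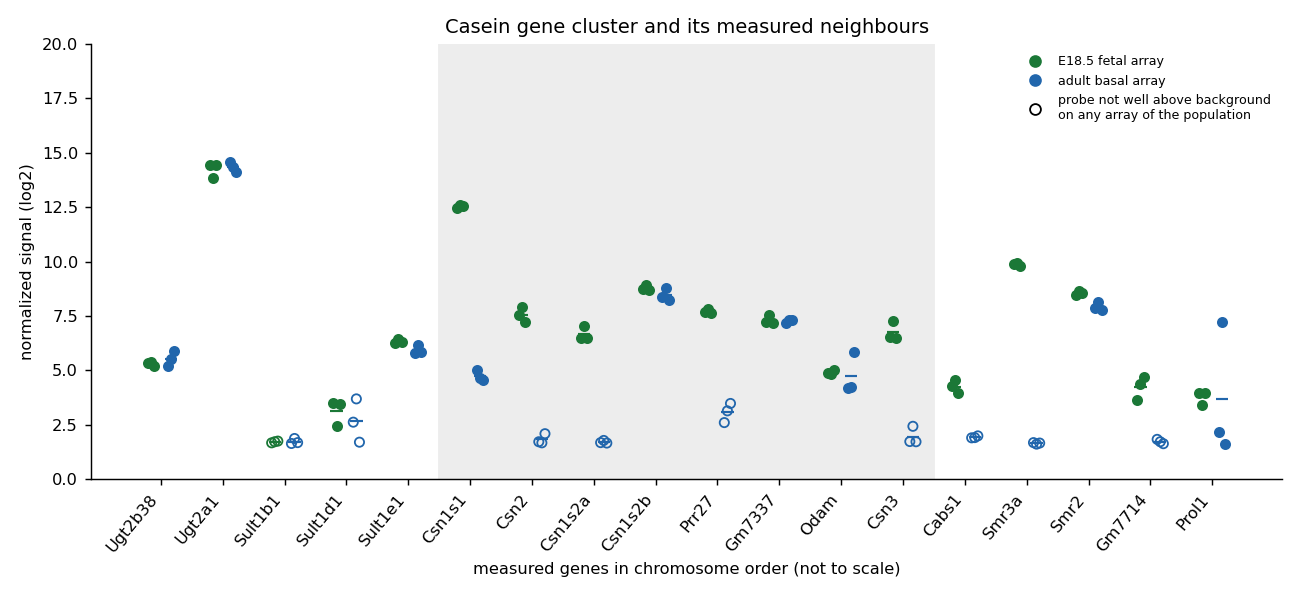
Normalized signal (log2) on each array for the measured genes of the casein cluster (shaded) and 5 measured genes on each side, in chromosome order with spacing not to scale. Lines are population means (n = 3), and open circles mark a probe not clearly detected (well above background) on any of that population's arrays. Csn1s1, Csn2, Csn1s2a, Prr27, Csn3 and Smr3a were called fetal. The populations overlap for Csn1s2b and Gm7337, and Smr2 differs by 0.63 without passing the test.

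Wfdc18 was higher in fetal cells, whereas of the whey proteins Lalba did not pass the test and Wap was too dim to be tested. Wfdc18 encodes a small secreted WAP-domain protein. Its probe A_51_P246166 read 15.82, 15.97 and 15.28 in fetal cells and 10.73, 10.43 and 9.17 in basal cells, all well above background. Array 3 was the dimmest of both populations, and the populations were separated by 4.55. The means were 15.69 ± 0.36 and 10.11 ± 0.83 (SD, n = 3 each), a difference of 5.58 (SE 0.40), or 47.8-fold, with a limma adjusted p of 0.034. The difference was 5.87 on slide 1 and 5.19 on slide 2, but with slide as a block the call was lost (limma adjusted p = 0.17). The call was also lost without fetal array 1 (0.50), fetal array 2 (0.39), fetal array 3 (0.19), basal array 1 (0.097) or basal array 2 (0.099), the differences then being 5.44 to 5.89, and was kept without basal array 3 (difference 5.11, limma adjusted p = 0.0065).

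Lalba, the regulatory subunit of lactose synthase, was bright in both populations. Probe A_55_P2150540 read 12.08, 11.95 and 12.07 in fetal cells and 11.36, 11.82 and 11.46 in basal cells. All fetal values were above all basal values, by 0.13 at the closest. The difference was 0.48 (SE 0.14) and the limma adjusted p was 1.0. By Benjamini-Hochberg the adjusted p was 0.019, still under the 2-fold limit. The excess was 0.67 on slide 1 and 0.19 on slide 2.

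Wap, the gene of the major rodent whey protein, had 2 probes below the low-signal limit of 5.95 that the test required. Probe A_51_P407705 read 4.33, 4.57 and 5.10 in fetal cells and 5.12, 5.11 and 4.23 in basal cells. Probe A_55_P2140255 read 5.52, 5.32 and 4.17 in fetal cells and 4.48, 4.43 and 3.95 in basal cells. The populations overlapped on both probes, with mean differences of -0.15 and 0.71. The first was well above background on 3 fetal and 2 basal arrays and the second on 2 of each, so the signal was near the limit of measurement in both populations.

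Btn1a1, the butyrophilin of the milk fat globule membrane, was bright in both populations and had a lower mean in fetal cells, without passing the test. Probe A_55_P2029235 read 14.78, 14.55 and 14.80 in fetal cells and 15.70, 15.22 and 15.83 in basal cells. All basal values were above all fetal values, and array 2 was the dimmest of both populations. The means were 14.71 ± 0.14 and 15.58 ± 0.32 (SD, n = 3 each), a difference of -0.87 (SE 0.18; limma adjusted p = 1.0; Benjamini-Hochberg 0.0036), which is under 2-fold. It was -0.98 on slide 1 and -0.55 on slide 2.

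Glycam1, a mucin-like glycoprotein secreted into milk and also made by high endothelial venules of lymph nodes, was the only milk gene called basal. Probe A_52_P602847 read 1.64, 1.65 and 1.68 in fetal cells and 8.27, 9.04 and 7.47 in basal cells. It was well above background on every basal array, of which array 2 was the brightest, and on no fetal array. Basal signal was at least 22.4-fold higher (means 1.65 ± 0.02 in fetal and 8.26 ± 0.79 in basal cells, SD, n = 3 each; limma adjusted p = 0.0044). The call was lost without fetal array 1, 2 or 3 (limma adjusted p = 0.093, 0.074 and 0.063) and without basal array 1 (0.078). The populations did not overlap on either slide. Settings that raise dim signals brought the fitted difference to -2.62 with normexp background correction and to -4.08 with 16 added to the signal before log2, and kept the call.

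Because Glycam1 is also a gene of high endothelial venules, markers of endothelium were read beside it. Of 7 endothelial markers, 6 were tested and 0 were called in either direction by Holm's method in limma, while 4 were higher in basal cells by Benjamini-Hochberg (Cdh5, Emcn, Cldn5 and Vwf), a method that called 14.0% of all probes basal. Cdh5, the cadherin of endothelial junctions, read 3.62, 4.49 and 6.36 in fetal cells and 7.49, 7.27 and 7.81 in basal cells, a difference of -2.70 (SE 0.62). Vwf, a clotting factor carrier made by endothelium, read 6.83, 6.31 and 7.21 in fetal cells and 8.04, 8.25 and 8.76 in basal cells. Basal array 2, the brightest for Glycam1, was the dimmest basal array for Cdh5, Emcn and Cldn5, the brightest for Pecam1, Kdr and Tek, and between the other two for Vwf. Pecam1, which encodes the CD31 used to sort endothelium out, had means of 9.10 and 9.25. The summed normalized signal of the 7 markers, on a linear scale, was 12400, 10900 and 12800 in fetal cells and 13100, 14100 and 11700 in basal cells. Kdr alone gave 86.5% to 93.8% of it, so the sum mostly follows that probe. None was listed at 0, though no fetal array had Tek well above background. Tek was too dim to be tested, but was well above background on all 3 basal arrays, where it was at least 1.86-fold higher. The median difference of the 6 tested was -1.48. Of 4 markers of high endothelial venules, 3 were tested and 0 called. The sulfotransferase gene Chst4 read 3.05, 2.18 and 3.00 in fetal cells and 2.26, 4.25 and 6.06 in basal cells, and was well above background on 2 basal arrays. Madcam1, Fut7 and Ackr1, which were tested, had differences of 0.25 (SE 0.34), 0.40 (SE 0.47) and -0.77 (SE 0.10), and the basal values of Ackr1 lay above all its fetal values. The summed signal of these 4, of which Madcam1 gave 36.8% to 60.4%, was 522, 550 and 537 in fetal cells and 701, 389 and 733 in basal cells. The part of endothelial RNA in the Glycam1 difference was not tested.

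**Figure D4:**
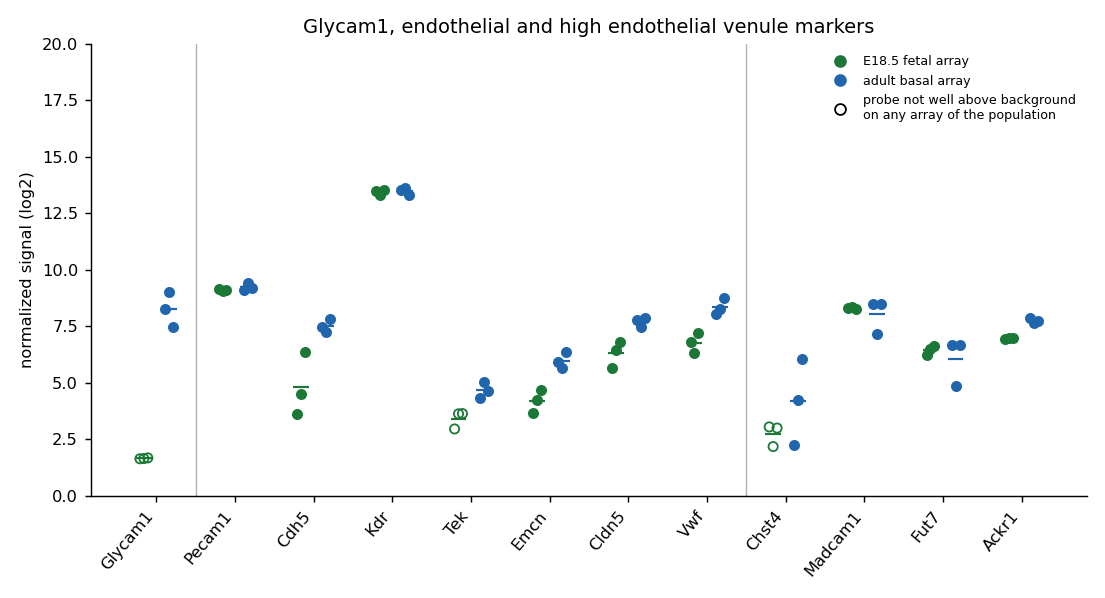
Normalized signal (log2) on each array for Glycam1, 7 endothelial markers (Pecam1 to Vwf) and 4 markers of high endothelial venules (Chst4 to Ackr1). Lines are population means (n = 3), and open circles mark a probe not clearly detected (well above background) on any of that population's arrays. Glycam1 is dim on all fetal arrays. Cdh5, Tek, Emcn, Cldn5 and Vwf lie higher on the basal arrays, and Pecam1 and Kdr differ little.

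The labelled cell types were checked against their markers. Of 9 markers of basal cells, all tested, 6 were called basal and 0 fetal, compared with 5.18% and 5.92% of all probes tested. The contractile genes Myh11, Cnn1, Mylk and Acta2 differed by -8.63, -6.01, -4.50 and -4.07. The basal keratin gene Krt5 and the oxytocin receptor gene Oxtr were also called basal, with differences of -3.9 (SE 0.2) and -3.96 (SE 0.16). Krt14 and Trp63, which mark basal epithelial cells, did not pass the test, with differences of -1.20 (SE 0.51) and -0.08 (SE 0.10). Vim, an intermediate filament gene, was higher in fetal cells by Benjamini-Hochberg only, with a difference of 1.15 (SE 0.09; limma adjusted p by Holm's method = 0.059). The summed signal of the list was 96800, 88400 and 82800 in fetal cells and 836000, 774000 and 766000 in basal cells, of which Acta2 gave 20.8% to 47.2%. Of 13 luminal markers, 12 were tested, 7 were called fetal and 0 basal, compared with 5.92% and 5.18% of all probes tested. Aldh1a3, an enzyme of luminal progenitors, differed by 7.11 and the luminal factor Foxa1 by 6.46, while the receptor gene Kit and the surface protein gene Ly6d both differed by 4.0. The luminal keratins Krt8 and Krt18 did not pass the test, with differences of 0.44 (SE 0.13) and 0.58 (SE 0.13). The keratin gene Krt19 was higher in basal cells by Benjamini-Hochberg only, which called 14.0% of all probes basal, with a difference of -1.22 (SE 0.16). The estrogen receptor gene Esr1, too dim to be tested, had means of 4.74 in fetal and 5.80 in basal cells. The summed luminal signal was 262000, 269000 and 215000 in fetal cells and 129000, 118000 and 121000 in basal cells, of which Krt18 gave 48.7% to 69.6%. No marker of either list was listed at 0. The part of the luminal content in the casein and Wfdc18 differences was not tested.

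Other cell types were read in the same way. Of all probes tested, Holm's method called 5.92% fetal and 5.18% basal, and Benjamini-Hochberg called 14.0% basal. Of 7 salivary gland markers, 5 were tested and 3 were called fetal, compared with 5.92% of all probes. These were Dcpp1, Dcpp2 and the water channel gene Aqp5, with differences of 8.60, 7.05 and 5.79. Among the others, Pip, Bpifa2 and Amy1 had fetal means of 5.74, 5.71 and 5.60 and basal means of 5.58, 6.14 and 6.79. Amy1 was higher in basal cells by Benjamini-Hochberg only, with a difference of -1.19 (SE 0.19). No array had Smgc well above background. The summed salivary signal was 23200, 25600 and 26100 in fetal cells and 694, 542 and 497 in basal cells, of which Aqp5 gave 42.3% to 65.0%. Of 9 leukocyte markers, 8 had a probe and were tested and 0 were called by Holm's method in limma, while by Benjamini-Hochberg 0 were higher in fetal cells and 1 in basal cells. That gene was the lysozyme Lyz2, with a difference of -1.76 (SE 0.54). The summed leukocyte signal was 35100, 29400 and 26800 in fetal cells and 25000, 34400 and 27600 in basal cells, of which Itgam gave 41.4% to 56.4%. Of 6 fibroblast markers, all tested, the proteoglycan gene Dcn was called basal, with a difference of -3.78. Lum was called basal by Benjamini-Hochberg only, with -1.05 (SE 0.23). Col1a2, Col3a1 and Pdgfra passed neither method, with -0.90, -0.89 and -0.37, and all their basal values lay above all fetal values. Col1a1 differed by -0.01 (SE 0.25). The summed fibroblast signal was 5440, 5700 and 7020 in fetal cells and 15500, 17900 and 25900 in basal cells. Dcn gave 12.5% to 60% of it. Of 5 skeletal muscle markers, 2 were tested and the actin gene Acta1 was called basal, with a difference of -4.68, while the troponin gene Tnnt3 had 0.03 (SE 0.11). Of the 3 too dim to be tested, Ckm had means of 4.88 in fetal and 5.35 in basal cells, Myh1 of 4.41 and 3.18, and Myh4 of 2.76 and 1.7. The summed signal, of which Acta1 gave 85.6% to 99.5%, was 984, 1070 and 852 in fetal cells and 20700, 23100 and 20700 in basal cells. Of 6 adipocyte markers, all were tested and 0 were called in either direction, by Holm's method in limma or by Benjamini-Hochberg. Their summed signal, of which Plin1 gave 27.9% to 58.2%, was 1050, 759 and 2080 in fetal cells and 1040, 923 and 1020 in basal cells, fetal array 3 being the highest. On that array Adipoq, the adiponectin gene, read 8.17, compared with 5.62 and 3.99 on fetal arrays 1 and 2. The part of these cell types in the milk gene differences was not tested.

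Over 7 lists of other genes of milk production, with 101 genes in all, 81 could be tested, of which 5 (6.17%) were called fetal and 8 (9.88%) basal, compared with 5.92% and 5.18% of all probes tested. With slide as a block, 8 in all were called, compared with 13 without it, while over all probes the count went from 2270 to 1541. Among 20 upstream regulators, 19 were tested, 1 was called fetal and 1 basal (10.5% in all), and the median difference was 0.13. The one called fetal was Elf5, the luminal transcription factor required for alveolar development, with means of 12.65 ± 0.15 and 5.10 ± 0.28 (SD, n = 3 each), a difference of 7.55 (SE 0.16; limma adjusted p = 7.5e-06). The one called basal was Stat5a, the main Stat5 of the gland, with means of 9.42 ± 0.12 and 11.16 ± 0.19 and a difference of -1.73 (SE 0.13; limma adjusted p = 0.047). The prolactin receptor gene Prlr, Jak2 and Stat5b did not pass the test, with differences of -0.35 (SE 0.11), 0.13 (SE 0.12) and -0.20 (SE 0.11). The Stat5 target and feedback genes Cish and Socs2 had differences of 1.32 (SE 0.12; limma adjusted p = 0.20) and 1.30 (SE 0.11; limma adjusted p = 0.11), both called by Benjamini-Hochberg only. The growth hormone receptor gene Ghr, the nuclear factor genes Nfia and Nfib, and Id2 were called fetal by that method too, with differences of 1.01, 1.55, 1.38 and 2.34. In all it called 7 of the 19 fetal and 1 basal, compared with 3267 fetal and 2866 basal of 20448 probes. The glucocorticoid receptor gene Nr3c1 and Cebpb passed neither method, with differences of -0.93 (SE 0.14) and -0.46 (SE 0.14). All basal values of these genes lay above all fetal values.

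The lists for the other components of milk are given beside the 11.1% of all probes tested that were called. The Benjamini-Hochberg share of all probes was 30.0%, with 14.0% basal. Of 21 milk fat genes, 19 were tested, 2 were called fetal and 1 basal (15.8% in all), with a median of -0.09. Benjamini-Hochberg called 6 of them fetal and 3 basal. The desaturase gene Scd2 differed by 3.29 (SE 0.14) and the lipogenic regulator Thrsp by 4.30 (SE 0.25), the latter being well above background on 1 basal array. The lipid droplet coat gene Plin2 differed by -1.72 (SE 0.10), and Xdh, a partner of butyrophilin on the droplet, by -1.92 (SE 0.44; limma adjusted p = 1.0). Of 8 genes of lactose synthesis, 7 were tested, 0 were called fetal and 2 basal (28.6%, compared with 5.18% of all probes), with a median of -1.62. These were the glucose transporter gene Slc2a1, with a difference of -3.35 (SE 0.14), and a phosphoglucomutase listed as Pgm1, with -2.19 (SE 0.10), while B4galt1, the partner of Lalba, had 0.02 (SE 0.13). By Benjamini-Hochberg 4 of the 7 were called basal, compared with 14.0% of all probes, the other two being the nucleotide sugar transporter gene Slc35a2, with -1.62, and the hexokinase gene Hk2, with -1.89. Of 11 genes of casein phosphorylation and mineral transport, 9 were tested, 0 were called fetal and 1 basal (11.1% in all), with a median of 0.46. Benjamini-Hochberg called 2 of them fetal and 1 basal. The zinc transporter gene Slc30a4 differed by -1.89 (SE 0.13), and the casein kinase gene Fam20c had 1.31 (SE 0.15; limma adjusted p = 0.76).

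Of 17 genes listed as other milk proteins, 14 were tested, 2 were called fetal and 3 basal (35.7% in all), with a median of -0.24. That is 14.3% fetal and 21.4% basal, compared with 5.92% and 5.18% of all probes. Benjamini-Hochberg, which called 30.0% of all probes, called 3 fetal and 5 basal here. It added Muc15, with 3.59 (SE 0.32), and Lcn2 and Saa3, with -1.56 (SE 0.18) and -5.32 (SE 0.47). Folr1, a folate-binding protein, differed by 2.88 (SE 0.15) and the WAP-domain gene Wfdc2 by 2.67 (SE 0.17). The iron carrier gene Trf differed by -3.57 (SE 0.14), the antiprotease gene Slpi by -5.19 (SE 0.18) and Parm1 by -2.01 (SE 0.15). Of 19 WAP-domain genes other than Wap and Wfdc18, 13 were tested, 1 was called fetal and 1 basal (15.4% in all), again Wfdc2 and Slpi, with a median of 0.04. Benjamini-Hochberg called 2 of them fetal and 2 basal. Of 7 butyrophilin genes other than Btn1a1, 2 were tested and 0 were called in either direction by Holm's method in limma or by Benjamini-Hochberg.

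**Figure D5:**
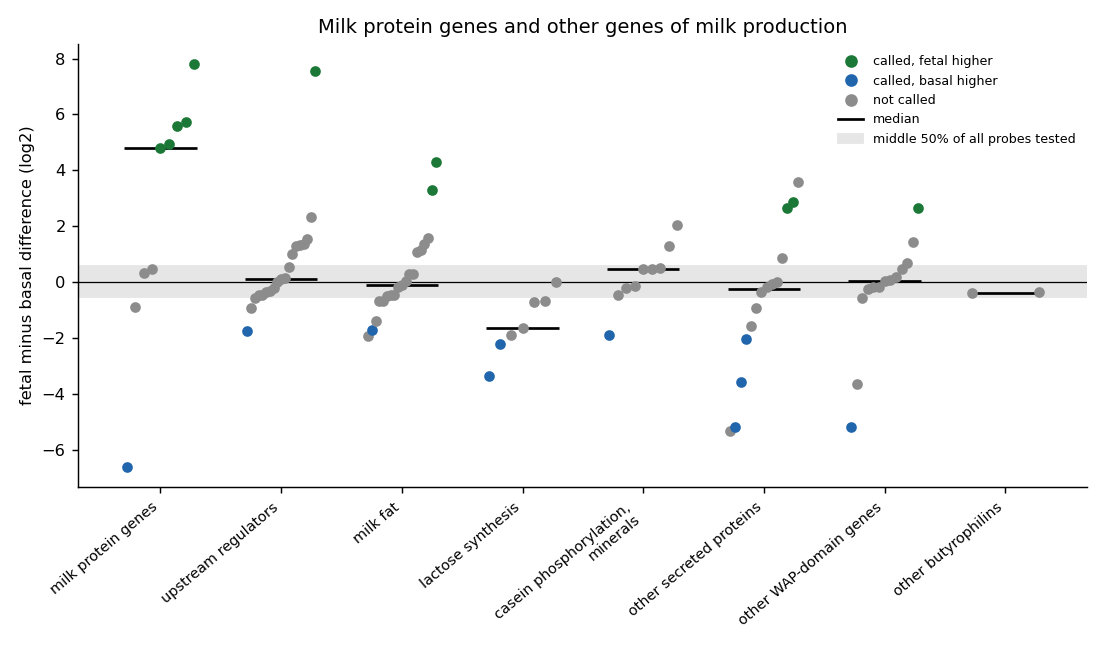
Fitted fetal minus basal difference (log2) of each tested gene (1 probe a gene, n = 3 arrays per population) for the milk protein genes and 7 lists of other genes of milk production, with the median of each list as a line and the middle 50% of all probes tested in grey. The milk protein median is 4.79 as plotted, or 2.89 with genes that were dim in 1 population at their bound, and the other medians lie between -1.62 for lactose synthesis and 0.46 for casein phosphorylation and minerals; Wfdc2 and Slpi stand in both the secreted and the WAP-domain lists.

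Across the 6 arrays, the genes whose centred log2 values lay closest to those of Csn1s1 were Bche, Fbp1, Elf5, Bex4 and Ehf. Their Euclidean distances were 0.24, 0.27, 0.79, 0.80 and 0.91, among 21195 probes with signal well above background everywhere. Their fetal minus basal differences were 7.93, 7.71, 7.55, 7.63 and 7.60. The same 3 arrays of each population enter every one of these profiles, so the likeness rests mostly on the shared difference between the populations.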

How the data were processed

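Agilent one-color 60-mer mouse arrays were measured for 3 fetal and 3 basal samples. The deposited scanner files hold intensities from Feature Extraction 11.0.1.1, and the authors also deposited log2 values, quantile normalized per the labels, which served as an alternative. The processed intensity was taken to log2, the spots of a probe were averaged without outlier-marked spots, and the 6 arrays were quantile normalized. Labels and methods name different labelling kits. Probes were matched by transcript identifier to the RefSeq table of GRCm38.p6, whereas the array was designed on mm9. Of the 27235 matched probes, 20448 passed a low-signal limit of 5.95 in at least 1 population. The limit was set by k-means (3 clusters), the kind of filter the study used. It was applied here to matched probes only, so the probes kept are not the study's own. Differences were fitted with limma 3.58.1 in R 4.3.3 (lmFit, eBayes, Holm), and the fit was tested on simulated data. Per array, 76.4% to 83.3% of probes were detected well above background, and no spot was saturated. The number of arrays limits the precision, and 0 columns were unused.

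The 10 genes, the other lists and the tests were chosen with earlier results of these data known. All members and probes are given, the brightest probe of a list gene stands for it, and of each list the 4 called genes with the largest differences and a signal well above background everywhere are named, with others added after their values were seen. Alternatives were the 75th percentile, the deposited values, normexp, an offset of 16, no or another filter, all probes, Benjamini-Hochberg, trend and robust eBayes, each array left out, and replicate or slide as a block.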

Additional observations from a re-analysis of the deposited data

How the results depend on the processing

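Csn1s1, Csn2 and Csn1s2a kept direction and call under each alternative that tested them (17, 16 and 15), and the log2 difference of Csn1s1, the one of them measured on both sides, was 6.0 to 8.0. Csn3, Wfdc18 and Glycam1 kept their direction and lost their call under 5, 10 and 5 alternatives. Without the low-signal filter, 3 of the milk probes were called in place of 6, with 1182 in place of 2270 over all probes and 8 in place of 13 pathway genes. The cause was not tested. With normexp, 3 milk probes and 1 cluster neighbour in place of 2 were called, since the filter then kept fewer probes (15714). Csn2, Csn1s2a and Csn3 were not among the probes kept, so their calls were not tested there. With the offset of 16, 4 milk probes were called, and Csn1s2a and Csn3 were not tested. Benjamini-Hochberg called 6133 probes, 34 pathway genes and 6 milk probes. Leaving out 1 array left 952 to 2014 probes, 6 to 14 pathway genes, 3 to 5 milk probes and 2 to 2 neighbours; the milk count was 3 without fetal array 1, fetal array 3 or basal array 1. Averaging both probes of Csn1s2b turned its difference to -0.09. With slide as a block 8 pathway genes were called. The depth of these arrays is their signal over background, which leaves Csn2, Csn1s2a, Csn3 and Glycam1 with a bound on the dim side and Wap untested.

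With the replicate number as a block, 1302 probes, 6 milk probes, 8 pathway genes and 2 neighbours were called. The deviations of same-numbered arrays correlated at -0.032, 0.093 and 0.0485, within the range of -0.129 to 0.12 for differently numbered arrays. With so few arrays, these correlations cannot show whether the numbers paired the samples, for all genes or for some. Whether the numbers mark shared processing was not tested.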
